A study of Mus musculus with 37 samples.

Results

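The acute phase proteins are plasma proteins that the liver makes in changed amounts during inflammation or injury, and 10 of their genes were followed here across the livers of adult mice given HFPO-DA. The members were taken by symbol from a list of genes, by a rule that used no measured level: the serum amyloid A genes Saa1, Saa2 and Saa4, the orosomucoid genes Orm1 and Orm2, haptoglobin (Hp), hemopexin (Hpx), lipocalin 2 (Lcn2), serum amyloid P component (Apcs) and C-reactive protein (Crp). They were represented by 15 of the 30146 probes in the table, that is by 10 of its 21450 gene symbols. A filter on low counts kept 18570 probes for testing, among them 13 of the 15 and at least 1 probe of each of the 10 genes. The other 2 were an Lcn2 probe with 22 counts in 4 mice and a Saa1 probe with 0 counts in every mouse.

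HFPO-DA (hexafluoropropylene oxide dimer acid, also known as GenX) is a short-chain perfluoroalkyl ether acid used in making fluoropolymers. Wild-type CD1 mice of both sexes received it in deionized water by oral gavage at 0.1 mg/kg, 0.5 mg/kg or 5 mg/kg in a reproductive and developmental toxicity study, and control mice (0 mg/kg) received the water alone. Males were about 6 weeks old at the start and were given 84 or 85 doses, over 70 days before mating and a mating period of 14 days. Females were about 11 weeks old at the start and were given 53 to 65 doses, from 14 days before mating through pregnancy to lactation day 20 or 21. Sections of formalin-fixed, paraffin-embedded liver were scraped from slides and measured by TempO-Seq, in which pairs of probes are ligated on their target transcript, amplified and sequenced. Each group held 5 mice, other than the males at 5 mg/kg and the females at 0.5 mg/kg or at 5 mg/kg, which held 4 mice each, after the authors had removed 3 of 40 mice for low depth or few detected probes. The controls of the sexes differed in sex, age, number of doses and lactation together, and these cannot be told apart. Mice are numbered within their group, and a number has no meaning across groups.

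Serum amyloid A proteins travel on high density lipoprotein, and Saa1 and Saa2 are among the most strongly induced liver genes of the mouse acute phase, whereas Saa4 is made constitutively. Interleukin 6 and interleukin 1, released by macrophages, drive the response in hepatocytes through STAT3, C/EBP family factors and NF-kB. Species differ in their main reactants: serum amyloid P component is a classical acute phase reactant of the mouse, in which C-reactive protein, the leading human reactant, changes little.

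Several members lie beside each other in the genome (positions on GRCm38, GENCODE vM21). Saa1 (chr7:46740497-46742980, minus strand) and Saa2 (chr7:46751790-46754313, plus strand) were 8809 bases apart, and Saa4 (chr7:46727998-46732603, minus strand) lay 7893 bases from Saa1. Orm1 (chr4:63344560-63348163, plus strand) and Orm2 (chr4:63362449-63365878, plus strand) were 14285 bases apart. Apcs (chr1:172893961-172895041, minus strand) and Crp (chr1:172698055-172833031, plus strand), which encode the mouse's short pentraxins, were 60929 bases apart. The coding sequences of Saa1 and Saa2 were identical at 348 of 366 aligned positions (95.1%), and 51 of 560 windows of 50 bases in Saa1 also occurred in Saa2. For Orm1 and Orm2 the identity was 558 of 621 positions (89.9%), with 148 of 726 windows shared. The bases each probe targets are not given in the sources used here, so a part of the counts within each of these pairs could come from the other gene, and the split between Saa1 and Saa2 and between Orm1 and Orm2 is uncertain for that reason. Apcs and Crp shared no window of 50 bases.

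The 250 bases upstream of the annotated start are shown for the genes that moved together in single mice (Saa1, Saa2, Orm2 and Lcn2) and for Crp, which did not move with them. This choice of windows rests on the measured levels, so nothing is read from a contrast between them. The sequences are from RefSeq on GRCm38.p6, read 5′ to 3′ on the strand of the gene, and capitals mark a C/EBP-type motif, TTGCNNAA on either strand:
Saa1 (chr7:46742981-46743230, minus strand): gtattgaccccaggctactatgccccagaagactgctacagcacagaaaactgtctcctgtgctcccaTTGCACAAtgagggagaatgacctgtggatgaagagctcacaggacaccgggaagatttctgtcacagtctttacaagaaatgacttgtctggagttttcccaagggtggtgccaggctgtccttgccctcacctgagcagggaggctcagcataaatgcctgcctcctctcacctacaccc
Saa2 (chr7:46751583-46751832, plus strand): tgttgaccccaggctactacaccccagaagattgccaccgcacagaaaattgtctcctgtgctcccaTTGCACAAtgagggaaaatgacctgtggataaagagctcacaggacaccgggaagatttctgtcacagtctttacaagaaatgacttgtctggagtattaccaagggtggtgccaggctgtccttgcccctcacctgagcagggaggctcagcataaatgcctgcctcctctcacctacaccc
Orm2 (chr4:63362199-63362448, plus strand): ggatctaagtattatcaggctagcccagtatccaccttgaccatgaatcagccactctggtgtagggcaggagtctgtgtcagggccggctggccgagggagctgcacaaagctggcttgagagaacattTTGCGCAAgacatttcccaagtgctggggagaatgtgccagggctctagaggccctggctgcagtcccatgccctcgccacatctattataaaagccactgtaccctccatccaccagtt
Lcn2 (chr2:32387740-32387989, minus strand): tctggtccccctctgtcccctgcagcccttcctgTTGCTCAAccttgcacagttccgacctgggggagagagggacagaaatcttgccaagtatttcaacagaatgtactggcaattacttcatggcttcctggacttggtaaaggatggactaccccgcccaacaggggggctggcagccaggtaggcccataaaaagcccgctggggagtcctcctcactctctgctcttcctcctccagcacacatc
Crp (chr1:172697806-172698055, plus strand): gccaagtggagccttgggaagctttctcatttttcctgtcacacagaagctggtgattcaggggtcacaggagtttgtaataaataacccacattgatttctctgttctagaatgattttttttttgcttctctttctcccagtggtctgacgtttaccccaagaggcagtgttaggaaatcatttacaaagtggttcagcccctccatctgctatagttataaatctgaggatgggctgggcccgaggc

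A promoter entry was present for 8 of the 10 members, and not for Hp or Orm1. The C/EBP-type motif occurred in 6 of the 8, against 9.56% of the 32851 mouse promoters searched over the same length. In Saa1 it read TTGCACAA from 182 to 175 bases before the start, and in Saa2 the same letters stood from 183 to 176 bases before it. The Saa1 and Saa2 windows were identical at 238 of 251 aligned columns (94.8%). Orm2 held TTGCGCAA from 120 to 113 bases before the start, Lcn2 held TTGCTCAA from 216 to 209 and Hpx held TTGCTGAA from 200 to 193. Saa4 held 2 matches, and the windows of Apcs and Crp held none. Saa4, at 0 to 22.6 CPM in the male controls, was in 0 of the 22 correlated pairs given below. Apcs by its probe with the most counts was 5.01 times the median of the other male controls in male control 2. Whether the motif goes with the levels was not tested. A STAT3-type motif, TTCNNNGAA, occurred in the Apcs window alone among the 8 members and in 7.02% of all promoters. An NF-kB-type motif, searched only as GGNNNTTCC on either strand, occurred in none of the 8 and in 15.7% of all promoters. Longer or other spellings of an NF-kB site were not searched, so the lack of a match does not show that such a site is absent. A match describes the letters in the window and is no evidence of binding.

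Total counts per mouse ranged from 2101495 to 13878254, with a median of 7780828 in the males and 10479000 in the females. Levels are given as CPM, that is counts scaled to the normalised depth of each mouse. Hepatocyte markers were abundant in every mouse, with a summed level of 11346 to 23583 CPM over 7 genes. It was 12514 CPM in male control 2 against 13753 to 18911 CPM in the other male controls, and 11346 to 13390 CPM in the males at 5 mg/kg. Alb, Ttr and Apoa2 in this sum are also on the list of negative acute phase genes read below. Alb was at 4304 CPM in male control 2 against 6145 to 8974 CPM in the other male controls, while Ttr and Apoa2 lay within their range. The sum therefore shares genes with the acute phase program and is no separate measure of hepatocyte content. In bulk liver, fewer cells of a type and less RNA per cell cannot be told apart.

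One male control stood apart on the members, and every comparison of the males with their controls includes it. The 10 genes together took 10.1% of all counts in male control 2, against 0.434% to 0.666% in the other 4 male controls. They took 3.22% in male 1 at 0.1 mg/kg, against 0.443% to 0.522% in the rest of that group, and 1.19% in female 2 at 5 mg/kg, against 0.397% to 0.560%. Male control 2 had the highest level of its group in 10 of 10 genes, female 2 at 5 mg/kg in 9 and male 1 at 0.1 mg/kg in 8. For this reason each comparison of the members is given with all mice and without male control 2. Where it differed, it is also given without these 3 mice, a set chosen after their values had been seen.

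**Figure D1:**
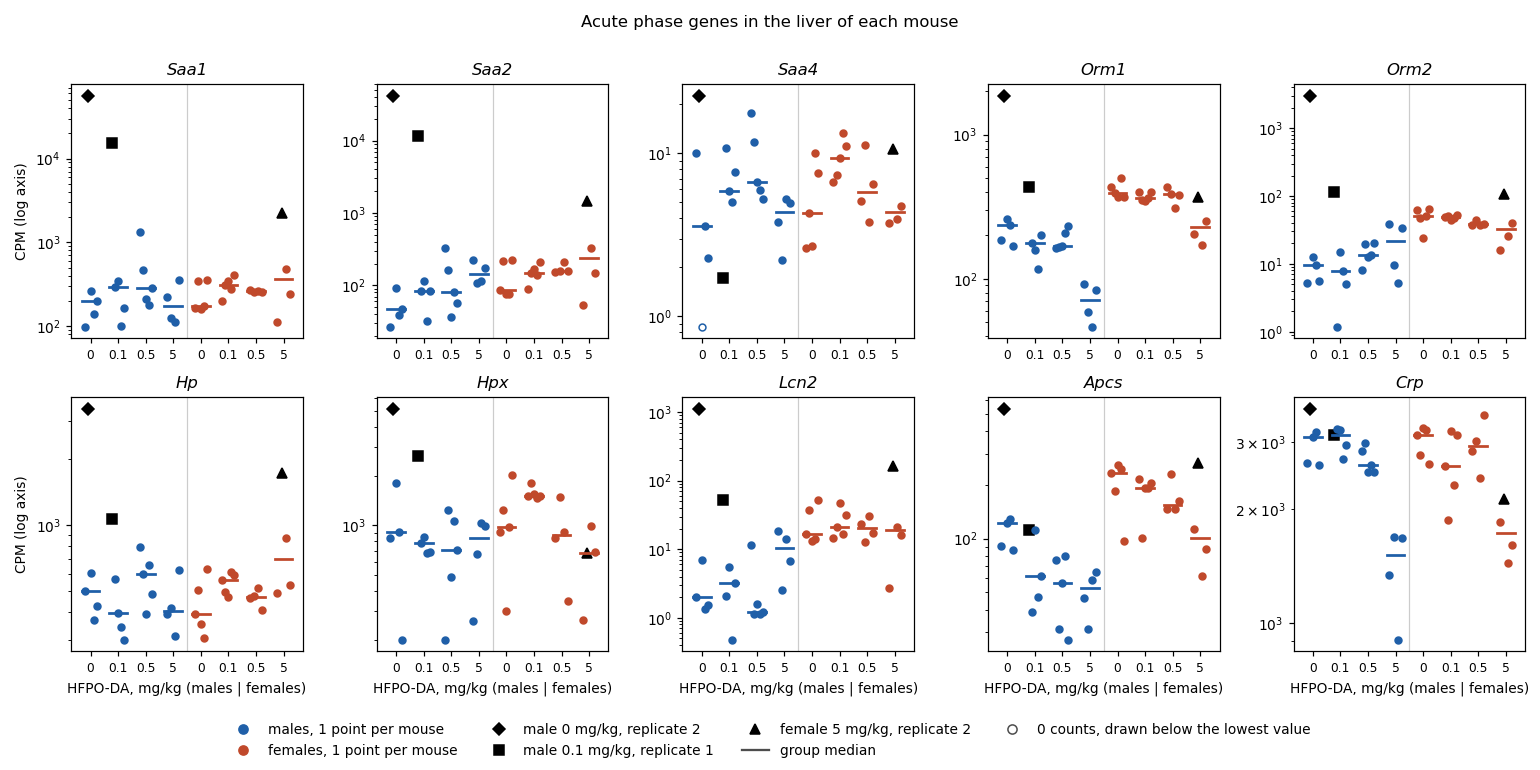
Level of each member in each mouse (CPM, log axis; the probe with the most counts per gene), by dose of HFPO-DA in males and females, with the group median as a bar and the 3 high mice as black symbols. Male control 2 reached 56724 CPM for Saa1 where the other male controls lay between 98.2 and 262.5 CPM, and for Crp all males at 5 mg/kg lay below all male controls.

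The level of Saa1 in male controls 1 to 5 was 98.2, 56724, 262.5, 138 and 199 CPM, and in the males at 5 mg/kg it was 224, 126, 113 and 357 CPM. Male control 2 was 337 times the median of the other 4, and the remaining controls overlapped the treated males. The males at 0.1 mg/kg were at 15490, 296, 349, 100 and 164 CPM, and those at 0.5 mg/kg at 1332, 469, 211, 178 and 283 CPM. One mouse of each of these groups thus lay above the rest, by 67.3 times the median of the others at 0.1 mg/kg. In females Saa1 was at 164, 343, 161, 173 and 358 CPM in the controls and at 112, 2271, 479 and 241 CPM at 5 mg/kg. Female 2 was the high mouse there, at 9.43 times the median of the other 3, and of the others 1 lay below, 1 within and 1 above the control range.

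Saa2 followed Saa1 mouse by mouse. Male controls 1 to 5 were at 26.9, 41912, 93.0, 38.9 and 47.5 CPM, and the males at 5 mg/kg were at 226, 109, 116 and 176 CPM. Here the 4 treated males lay above the 4 other controls and far below male control 2, which was 970 times the median of the others. Male 1 at 0.1 mg/kg was at 11469 CPM against 32.2 to 115 CPM in its group. Female 2 at 5 mg/kg was at 1454 CPM against 53.6 to 325 CPM in the other 3, with 75.2 to 221 CPM in the female controls. Saa4, the constitutive form, was low, at 0 to 22.6 CPM in the male controls (22.6 CPM in male control 2), 2.21 to 5.25 CPM in the males at 5 mg/kg and 2.62 to 10.0 CPM in the female controls.

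Lcn2 encodes a siderophore-binding protein that withholds iron from bacteria and is made by hepatocytes and neutrophils. It was at 2.04, 1119, 6.96, 1.33 and 1.56 CPM in male controls 1 to 5 and at 18.4, 2.54, 14.3 and 6.80 CPM in the males at 5 mg/kg. Male control 2 was 621 times the median of the other controls, and 2 of the 4 treated males lay above all of those. Male 1 at 0.1 mg/kg was at 52.4 CPM against 0.477 to 5.45 CPM in the others. In females it was at 16.4, 36.9, 13.1, 14.1 and 51.8 CPM in the controls and at 2.68, 165, 21.2 and 16.3 CPM at 5 mg/kg, where female 2 again stood above its group.

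The orosomucoids, also called alpha-1-acid glycoproteins, bind small lipophilic molecules and dampen immune cell activity. Orm1 was at 185, 1866, 261, 234 and 168 CPM in male controls 1 to 5 and at 91.3, 58.5, 46.5 and 83.9 CPM in the males at 5 mg/kg. All 4 treated males lay below all 5 controls, so the direction of this difference did not rest on male control 2. The males at 0.5 mg/kg, at 164 to 233 CPM, overlapped the controls. In females Orm1 was at 430, 397, 372, 502 and 368 CPM in the controls and at 205, 372, 171 and 251 CPM at 5 mg/kg. Of the 4 treated females 3 lay below every control and female 2 lay within the control range. Orm2 was at 5.28, 3016, 12.7, 9.57 and 5.68 CPM in male controls 1 to 5 and at 38.4, 9.60, 5.25 and 34.1 CPM in the males at 5 mg/kg. Male control 2 was 396 times the median of the others, whose range overlapped that of the treated males. The female controls were at 24.4 to 65.0 CPM, above every male control other than number 2.

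Haptoglobin binds free hemoglobin and hemopexin binds free heme, and both deliver their load to scavenger receptors. The Hp probe with the most counts was at 499, 3402, 603, 367 and 428 CPM in male controls 1 to 5 and at 394, 421, 313 and 625 CPM in the males at 5 mg/kg. The treated males overlapped the 4 other controls, and male control 2 was 7.34 times their median. Its level in females was 393, 507, 354, 305 and 633 CPM in the controls and 491, 1725, 871 and 536 CPM at 5 mg/kg, where females 2 and 3 lay above all controls. Hpx was at 837, 5140, 1826, 912 and 201 CPM in male controls 1 to 5 and at 263, 671, 1034 and 996 CPM in the males at 5 mg/kg. In females it was at 302 to 2021 CPM in the controls and at 266 to 989 CPM at 5 mg/kg, and the groups overlapped.

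The pentraxins bind phosphocholine and other ligands on bacteria and damaged cells. Of the 2 Apcs probes, the one with the most counts was at 91.0, 535, 122.5, 128 and 86.8 CPM in male controls 1 to 5 and at 46.5, 31.1, 58.9 and 64.9 CPM in the males at 5 mg/kg. The other probe was at 58.7, 420, 132, 124 and 56.4 CPM and at 29.01, 25.6, 42.0 and 31.4 CPM in the same mice. For both probes all treated males lay below all controls. In females the first probe was at 234, 185, 259, 247 and 97.3 CPM in the controls and at 114, 266, 61.9 and 87.1 CPM at 5 mg/kg, where the groups overlapped and female 2 was the highest.

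For Crp no mouse stood far from its group. It was at 2633, 3670, 3085, 3186 and 2616 CPM in male controls 1 to 5 (3038 ± 437, SD, n = 5) and at 1336, 1691, 904 and 1679 CPM in the males at 5 mg/kg (1403 ± 371, SD, n = 4). In females it was at 3132, 2772, 3261, 3226 and 2632 CPM in the controls (3005 ± 285, SD, n = 5) and at 1848, 2126, 1444 and 1609 CPM at 5 mg/kg (1757 ± 297, SD, n = 4). In each sex every mouse at 5 mg/kg lay below every control. The groups at 0.1 and 0.5 mg/kg lay between 2499 and 3254 CPM in males and between 1868 and 3534 CPM in females, overlapping their controls.

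In edgeR the mice of each dose were set against the control mice of the same sex by quasi-likelihood tests, the p-values were adjusted over all probes tested by the method of Benjamini and Hochberg, and a probe was called at an adjusted p under 0.10. With all mice, 8 of the 10 genes (11 of 13 probes) were called in males at 5 mg/kg, all of them lower than in the controls, where 12.7% of all probes tested were called in either direction and 8.49% were called lower. The largest differences were those of Saa1 (log2 fold change -5.81, SE 1.49, adjusted p = 0.00885), Saa2 (-5.75, SE 1.65, adjusted p = 0.0210), Orm2 (-4.79, SE 1.25, adjusted p = 0.0101) and Lcn2 (-4.48, SE 1.38, adjusted p = 0.0339). Without male control 2 none of these 4 was called and each difference turned positive, with log2 fold changes of 0.20, 1.57, 1.37 and 1.75 and adjusted p of 0.944, 0.362, 0.225 and 0.266. The 3 Hp probes, with log2 fold changes of -1.27, -1.19 and -1.24 and adjusted p of 0.0592, 0.0358 and 0.0481 with all mice, were not called without that mouse either (-0.15, adjusted p = 0.856, for the probe with the most counts). Saa4 (-0.95, SE 0.71, adjusted p = 0.468) and Hpx (-1.27, SE 0.56, adjusted p = 0.162) were not called with all mice.

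Crp, Orm1 and Apcs stayed lower in males at 5 mg/kg without male control 2, where 11.2% of all probes were called. Crp was at a log2 fold change of -1.11 (SE 0.17, adjusted p = 6.72e-06) with all mice and -1.07 (SE 0.17, adjusted p = 2.58e-05) without it. Orm1 was at -2.95 (SE 0.46, adjusted p = 1.24e-05) and -1.63 (SE 0.26, adjusted p = 2.93e-05). The Apcs probes were at -1.94 (adjusted p = 0.00297) and -2.32 (adjusted p = 0.000649), and at -1.13 (adjusted p = 0.0527) and -1.58 (adjusted p = 0.00988) without that mouse. The 4 probes of Crp, Orm1 and Apcs were those with every treated male below every male control, a pattern shown by 4.8% of all probes tested. The median log2 fold change over the 10 genes was -2.45 with all mice, against -0.12 over all probes, and -0.09 without male control 2. Without all 3 high mice, where 10.3% of all probes were called, the same 3 genes were lower, Saa2 (1.57, SE 0.49, adjusted p = 0.0436) and Orm2 (1.37, SE 0.47, adjusted p = 0.0685) were called higher, and Lcn2 (1.76, adjusted p = 0.132) was not called.

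**Figure D2:**
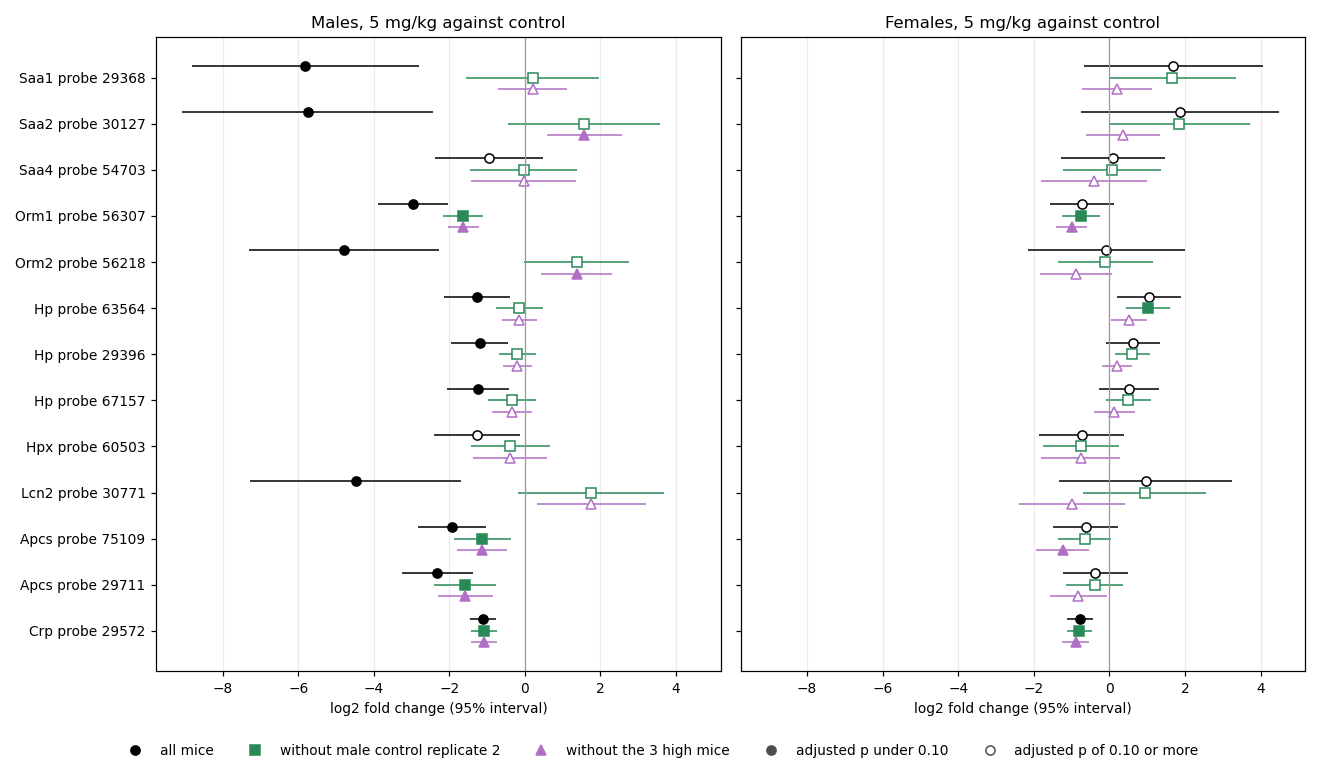
Log2 fold change at 5 mg/kg against the control of the same sex for the 13 tested probes, with 95% intervals, for all mice and with mice left out; filled symbols have an adjusted p under 0.10. In males Saa1 moved from -5.81 to 0.20 when male control 2 was left out, while Crp stayed near -1.1 in every setting.

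In females at 5 mg/kg 1 of the 10 genes was called, where 4.52% of all probes were called in either direction and 2.26% lower. It was Crp, at a log2 fold change of -0.77 (SE 0.17, adjusted p = 0.00220), and it was also the one member with every treated female below every control, as for 4.31% of all probes. Orm1 was at -0.73 (SE 0.42, adjusted p = 0.553) with all mice. All mice were in the same fit, in which the groups of both sexes shared the estimate of the spread of each probe. Leaving out male control 2 also changed the calls in females. Orm1 was then called lower (-0.75, adjusted p = 0.0900) and the Hp probe with the most counts was called higher (1.03, adjusted p = 0.0333), where 4.54% of all probes were called. Without all 3 high mice, Orm1 (-1.001, SE 0.21, adjusted p = 0.00201), 1 Apcs probe (-1.24, adjusted p = 0.0389) and Crp (-0.89, adjusted p = 0.00150) were called lower and Hp was not called (0.51, adjusted p = 0.398), where 3.3% of all probes were called. The median log2 fold change over the genes was close to 0 in females with all mice, -0.82 without female 2 at 5 mg/kg and -0.82 without the 3 high mice. Saa1 (1.69, SE 1.17, adjusted p = 0.730), Saa2 (1.87, adjusted p = 0.736) and Lcn2 (0.96, adjusted p = 0.972) were higher on average with all mice and not called.

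At the lower doses no member was called without male control 2. In males at 0.5 mg/kg 5 genes were called lower with all mice, where 0.625% of all probes were called in either direction and 0.242% lower: Saa2 (-5.98, adjusted p = 0.0659), Lcn2 (-6.07, adjusted p = 0.0253), Orm2 (-5.37, adjusted p = 0.0178), Apcs by 1 probe (-1.83, adjusted p = 0.0235) and Orm1 (-1.53, adjusted p = 0.0798). Without male control 2 none was called by edgeR, 1 of the 13 probes had an unadjusted p under 0.05, and 0.41% of all probes were called. The number was 2 to 3 when any of males 2 to 5 of the treated group was left out. None was called without the 3 high mice, where 0.359% of all probes were called. In males at 0.1 mg/kg edgeR called 0 members, where 0% of all probes were called; 8 of the 13 probes had an unadjusted p under 0.05, and DESeq2 also called 0. In females edgeR called 0 members at 0.1 mg/kg (0% of all probes) and 0 at 0.5 mg/kg (0.113% of all probes), with 0 probes at an unadjusted p under 0.05 in both. DESeq2 called 0 as well, but in either sex it could not call a probe to which it gave no adjusted p. It gave none for 15 of the 24 probe differences that edgeR called with all mice over all comparisons. Crp had a log2 fold change of -0.18 (SE 0.15, adjusted p = 0.846) in males at 0.5 mg/kg.

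The difference between the sexes in the effect of 5 mg/kg, the male minus the female log2 fold change, was called for 4 genes with all mice, where 0.63% of all probes were called: Saa1 (-7.50, adjusted p = 0.0517), Saa2 (-7.62, adjusted p = 0.0988), Orm1 (-2.22, adjusted p = 0.0912) and Hp by 1 probe (-2.32, adjusted p = 0.0787). Without male control 2 edgeR called 0 of them, with 4 probes at an unadjusted p under 0.05 and 0.512% of all probes called, and without the 3 high mice it also called 0, with 0.411% of all probes called. The count was likewise 0 without male 3 at 5 mg/kg or female 2 at 5 mg/kg. For Crp the difference was -0.34 (SE 0.23, adjusted p = 0.676), which misses the threshold without showing that the sexes responded alike. At 0.1 and 0.5 mg/kg edgeR called 0 members for this difference, where 0% and 0.0108% of all probes were called. Of the 13 probes, 8 and 7 had an unadjusted p under 0.05. DESeq2 called 0, with the same limit on probes without an adjusted p.

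Between the controls of the sexes the direction turned with male control 2. With all mice Saa1 (5.58, adjusted p = 0.0118), Saa2 (5.96, adjusted p = 0.0206) and Orm2 (3.62, adjusted p = 0.0730) were called higher in males on the log2 scale, where 2.6% of all probes were called. Without that mouse, where 2.73% were called, Orm1 (-0.94, adjusted p = 0.0290), Orm2 (-2.55, adjusted p = 0.0351) and Lcn2 (-3.12, adjusted p = 0.0794) were called lower in males. The same 3 were called without the 3 high mice, with adjusted p of 0.00135, 0.000372 and 0.00767, where 2.49% of all probes were called.

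**Figure D3:**
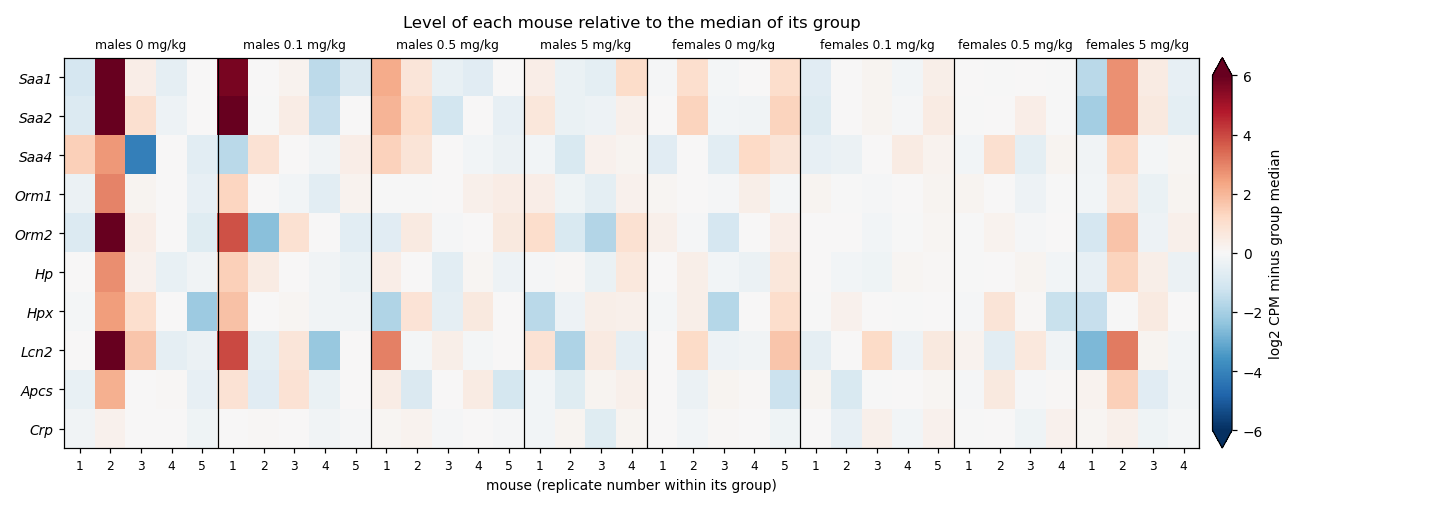
Log2 CPM of each member in each of the 37 mice minus the median of its group, with the colour scale ending at 6 in each direction. Male control 2 is high in all 10 rows, while male 1 at 0.1 mg/kg and female 2 at 5 mg/kg are high in most and Crp varies little in any mouse.

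The members were then compared over mice within groups, as deviations of log2 CPM from the group mean (37 mice, 45 pairs of genes, permutation test with 100000 resamples, two-sided, Benjamini-Hochberg adjustment over the 45 pairs). Spearman's rho had an adjusted p under 0.10 in 22 pairs, all positive, and 5 of these pairs remained without the 3 high mice. These 5 were Saa1 with Saa2 (rho 0.947 in all mice, 0.913 in 34), Saa1 with Lcn2 (0.789 and 0.693), Saa1 with Hp (0.786 and 0.613), Saa2 with Hp (0.822 and 0.636) and Saa2 with Lcn2 (0.789 and 0.739). In all mice the adjusted permutation p was 0.00015 for the 3 pairs among Saa1, Saa2 and Lcn2, 0.00099 for Saa1 with Hp and 0.00034 for Saa2 with Hp. Pearson's r for Saa1 with Saa2 was 0.988. When the 2 mice farthest from the median of the gene on the x axis were left out, 5 pairs had an adjusted p under 0.10. Saa4 was in 0 of the 22 pairs and Crp in 2, with Apcs (rho 0.464) and Orm1 (rho 0.370). Counts in a mouse share its library, and near-identical sequence is shared by Saa1 with Saa2 and by Orm1 with Orm2.

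**Figure D4:**
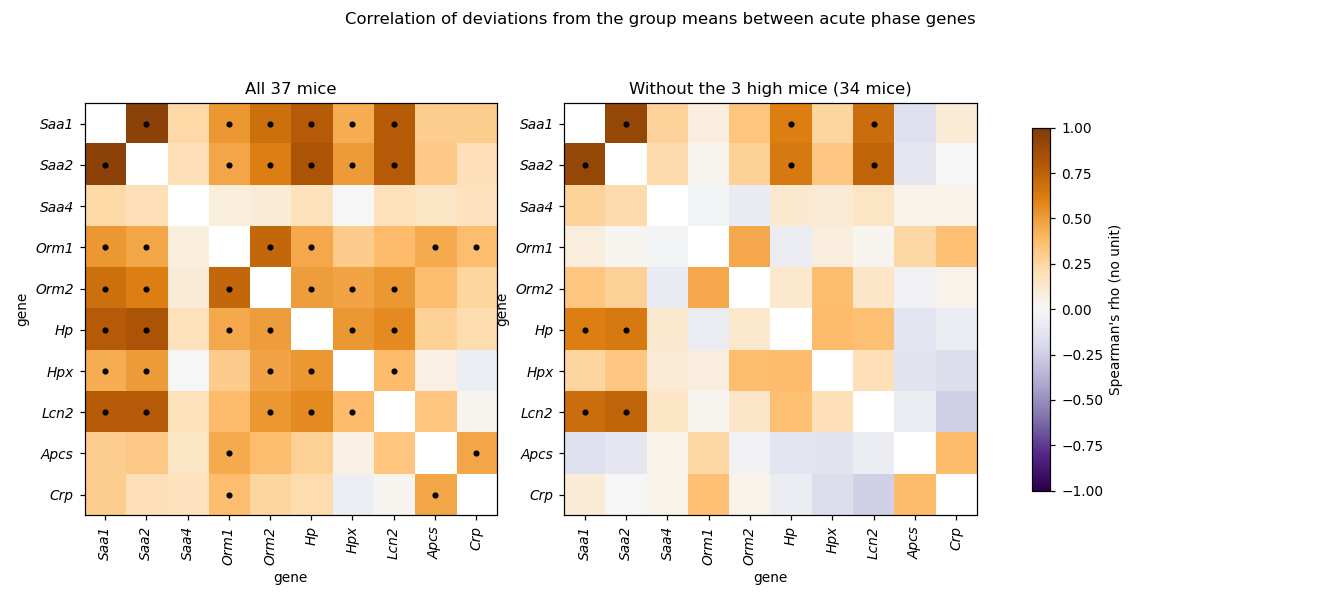
Spearman's rho between deviations from the group means for each pair of members, in all 37 mice and in the 34 mice other than the 3 high ones, with a dot where the adjusted permutation p is under 0.10. The number of pairs with a dot falls from 22 to 5, all among Saa1, Saa2, Hp and Lcn2.

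Across 13003 other genes, those whose deviations were most like Saa1 were Saa2 (rho 0.95), Lcn2 (0.79), Hp (0.79), Itih4 (0.76) and Orm2 (0.69). Without the 3 high mice these values were 0.91, 0.69, 0.61, 0.55 and 0.33. Itih4 encodes an inter-alpha-trypsin inhibitor heavy chain and is itself listed as an acute phase gene. For Orm1 the nearest were Orm2 (0.73), C130050O18Rik (0.64), Cpb2 (0.63), Itih4 (0.62) and 1700123O20Rik (0.62). Without the 3 high mice these were 0.46, 0.35, 0.45, 0.30 and 0.49. C130050O18Rik had 246 counts over all mice, so its likeness rests on few counts. For Lcn2 the nearest were Saa1 and Saa2 (both 0.79), Csf1r (0.72), the receptor for macrophage colony stimulating factor, Pdlim4 (0.64) and Hrg (0.63). Without the 3 high mice these were 0.69, 0.74, 0.57, 0.59 and 0.64. Pdlim4 had 870 counts over all mice.

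Markers of other cell types were read in the high mice. Of 11 neutrophil markers 7 passed the filter, and their summed level was 66.7 CPM in male control 2 against 1.46 to 14.6 CPM in the other male controls. Over its 3 probes Mpo, a granule enzyme, had 658 counts in that mouse and at most 3 in another male control. Over all their probes, Ltf had 112 against at most 18, Camp 80 against at most 2, Ngp 21 against 0 and Ly6g 97 against at most 82. Elane had 0 counts in every mouse, and Mmp8 had 0 in that mouse and 33 over all mice. The summed level in CPM used 1 probe per gene. The sum was 13.5 CPM in male 1 at 0.1 mg/kg, within the 3.41 to 15.98 CPM of its group, and 27.2 CPM in female 2 at 5 mg/kg against 11.9 to 22.5 CPM. It ranged over 0.986 to 16.97 CPM in the males at 0.5 mg/kg, 4.48 to 13.5 CPM in the males at 5 mg/kg and 17.1 to 52.9 CPM in the 3 lower female groups. For 10 of 10 Kupffer cell and macrophage markers the sum was 367 CPM in male control 2 against 87.0 to 223 CPM, 203 CPM in male 1 at 0.1 mg/kg against 94.6 to 261 CPM, and 508 CPM in female 2 at 5 mg/kg against 253 to 343 CPM. It was 102 to 301 CPM in the other 2 male groups and 185 to 408 CPM in the other 3 female groups. Lymphocyte markers, 4 of 5 tested, summed to 0 to 29.1 CPM over all mice. One of 5 adipocyte markers passed the filter, Fabp4, at 128 to 336 CPM in the males and 20.1 to 266 CPM in the females at 5 mg/kg, against 11.7 to 33.8 CPM and 14.2 to 30.4 CPM in their controls, while Adipoq, Plin1, Cfd and Lep had at most 68 counts over all mice. The part of these markers in the members' levels was not tested.

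The members belong to a wider program, which was read from 4 lists of other genes: positive acute phase genes, negative acute phase genes (those whose products fall in inflammation), regulators, and receptors or clearance genes. Over all probes, 8.49% were called lower and 4.21% higher in males at 5 mg/kg, and 2.26% lower in females. Of 26 other positive genes tested, 16 were called lower and 0 higher in males at 5 mg/kg, and 14 lower and 1 higher (Il1rn, an interleukin 1 antagonist, named after its value was seen) without male control 2. Among the females 7 were called lower and 0 higher, and 8 lower without male control 2. The median log2 fold change was -0.99 in males and -0.34 in females with all mice, and -0.73 and -0.36 without male control 2. Serpina3m, a serine protease inhibitor, was at 20.7 to 107 CPM in the male controls and 3.54 to 13.9 CPM in the treated males. Its log2 fold change was -2.78 in males (SE 0.40, adjusted p = 3.15e-06) and -2.16 in females (adjusted p = 0.000111). Its paralog Serpina3k was at -1.05 (adjusted p = 0.000757) in males and -1.82 (adjusted p = 1.4e-07) in females, and the split of counts within this family of similar genes is uncertain. Though listed as a positive gene, Serpina3k was at 3698 CPM in male control 2, below the 3812 to 5984 CPM of the other male controls. Itih4 was at -2.14 (adjusted p = 4.64e-06) and -1.23 (adjusted p = 0.00994). Pzp, a broad protease inhibitor of mouse plasma, was at -1.17 (adjusted p = 5.92e-06) in males and -0.31 (adjusted p = 0.526) in females. Unless stated, fold changes of genes named from the 4 lists are those with all mice. Male control 2 was the highest male control for Serpina3m, at 107 CPM against at most 62.5 CPM in the others. For Itih4 it was at 974 CPM against 258 to 348 CPM, and for Pzp at 1083 CPM against 570 to 730 CPM. The males at 5 mg/kg were at 72.2 to 150 CPM for Itih4 and 282 to 412 CPM for Pzp.

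The paralogs outside the list followed the same mouse. Saa3, which macrophages also make, was at 62.3 CPM in male control 2 and 0.721 to 10.3 CPM in the other male controls. At 5 mg/kg it was called neither in males (-2.72, adjusted p = 0.104) nor in females (1.15, adjusted p = 0.839). Orm3 was at 55.7 CPM in male control 2, at most 0.797 CPM in the other male controls and at most 0.236 CPM in the males at 5 mg/kg.

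All 14 negative acute phase genes were tested, of which 9 were called lower in males at 5 mg/kg and 7 in females, with 0 called higher (8.49% and 2.26% of all probes were called lower), and the counts were the same without male control 2. The positive and the negative lists therefore both held genes called lower, and Il1rn was the only gene of either called higher in these comparisons. The median log2 fold change was -0.79 in males and -0.51 in females. Fetub, a fetuin, was at -1.74 (adjusted p = 4.93e-07) in males and -0.67 (adjusted p = 0.0921) in females. Ahsg, the other fetuin, was at -0.99 (adjusted p = 6.98e-05) and -0.75 (adjusted p = 0.00427). Trf, the iron carrier transferrin, was at -0.93 (adjusted p = 0.000915) and -1.09 (adjusted p = 0.000181). Apoa1, the main protein of high density lipoprotein, was at 19614 to 29866 CPM in the male controls and 8779 to 12346 CPM in the treated males, with a difference of -1.14 on the log2 scale (SE 0.19, adjusted p = 2.71e-05). In females it was at 11315 to 17706 CPM in the controls and 12742 to 17576 CPM at 5 mg/kg (-0.01, adjusted p = 1), and the difference between the sexes was called (-1.13, SE 0.26, adjusted p = 0.0267).

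Of 30 regulators tested, 4 were called lower in males at 5 mg/kg and 3 without male control 2, when Cebpd (-1.26, adjusted p = 0.0560 with all mice, 0.172 without it) was no longer called. In females 1 was called, also lower. These counts lie near the 8.49% of all probes called lower in males and the 2.26% in females, and nothing is read from them about the list. The gene called in females was Il1rap, the accessory chain of the interleukin 1 receptor, at 130 to 189 CPM in the male controls and 37.5 to 65.6 CPM in the males at 5 mg/kg (-1.63, SE 0.22, adjusted p = 6.69e-07), and at -0.95 in females (adjusted p = 0.00349). Il1r1, the signalling receptor of interleukin 1, was at 264 to 658 CPM in the male controls, 53.3 to 113 CPM in the males at 5 mg/kg, 53.6 to 140 CPM in the female controls and 84.1 to 151 CPM in the treated females. The log2 fold change was -2.46 (SE 0.36, adjusted p = 4.91e-06) in males and 0.03 (adjusted p = 1) in females, and the difference between the sexes was called both with all mice (-2.49, SE 0.48, adjusted p = 0.00626) and without male control 2 (-2.31, adjusted p = 0.0128). The male controls were higher than the female controls for this gene (2.11, adjusted p = 2.36e-05), and the levels of the treated males overlapped those of the female controls. Stat3 was at -0.91 (adjusted p = 0.00839) in males, -0.79 (adjusted p = 0.0321) without male control 2, and -0.54 (adjusted p = 0.261) in females. Cebpb was not called in males (-0.67, adjusted p = 0.111) or females (0.74, adjusted p = 0.134), while the difference between them was (-1.41, adjusted p = 0.0862), though not without male control 2 (adjusted p = 0.182). Il6st, the shared signalling chain of the interleukin 6 receptors, was at -0.07 and -0.22 and was not called, and Il6ra and Socs3 were at most 6.41 and 5.96 CPM in any mouse.

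Among 12 receptors and clearance genes tested, 4 were called lower in males at 5 mg/kg and 2 in females, and 3 in each sex without male control 2, where 8.49% of all probes were called lower in males and 2.26% in females with all mice. Lrp1, which takes up heme bound to hemopexin, was at -0.85 (adjusted p = 0.00059) in males and -0.63 (adjusted p = 0.0211) in females. Asgr2 and Asgr1, the chains of the asialoglycoprotein receptor, were at -0.95 (adjusted p = 0.00117) and -0.45 (adjusted p = 0.0856) in males and at -0.52 (adjusted p = 0.185) and -0.55 (adjusted p = 0.0595) in females. Scarb1, a receptor for high density lipoprotein, was at -0.99 (adjusted p = 0.0275) in males and -0.23 in females. Cd163, the receptor for haptoglobin bound to hemoglobin, and Slc22a17, a receptor for lipocalin 2, were at most 19.2 and 5.75 CPM in any mouse and were not called.

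**Figure D5:**
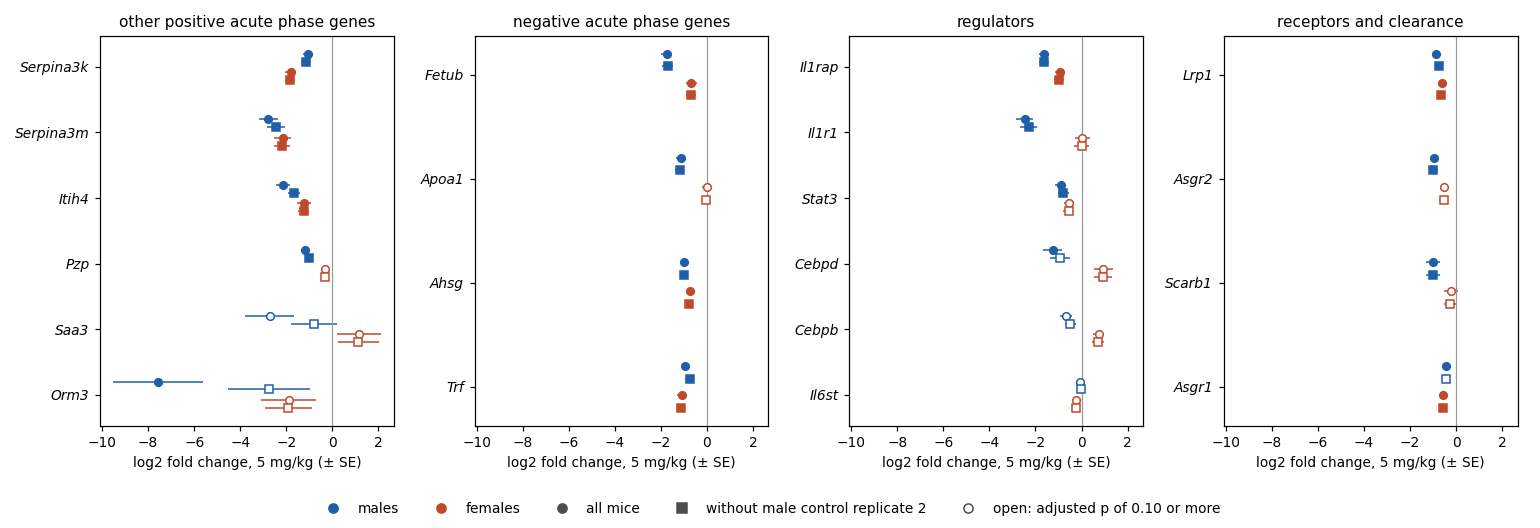
Log2 fold change with its SE at 5 mg/kg in males and females for the named genes of the 4 other lists, with all mice (circles) and without male control 2 (squares); filled symbols have an adjusted p under 0.10. Il1r1 was at -2.46 in males and 0.03 in females, and Serpina3m and Itih4 lay below 0 in both sexes.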

How the data were processed

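Per the labels and the study's methods, the authors sequenced the TempO-Seq libraries on an Illumina HiSeq, converted the reads with bcl2fastq 2.17.1.14, aligned them to the probe sequences with Bowtie and deposited raw counts per probe. The counts of the 37 mice were used as deposited. edgeR 4.0.16 (R 4.3.3) was used with filterByExpr over the 8 groups, TMM normalization, 1 mean per sex and dose, quasi-likelihood tests and Benjamini-Hochberg adjustment over all probes tested, calling at an adjusted p under 0.10. Other settings of edgeR and DESeq2 1.42.0 served for the alternatives, and correlations used Python 3.11.15 with scipy 1.17.1. The script was tested on simulated data. log2 CPM carried a prior count of 2. Mice are the replicates, and the edgeR tests set differences between groups against the spread between mice as estimated in the fit. The members and lists were chosen with earlier results of these data known. Every member probe is reported. Of the 4 other lists, the up to 4 genes with the smallest adjusted p at 5 mg/kg in either sex are named, with the paralogs, cytokine signalling genes and receptors chosen by name whatever their result. Apcs and Hp levels are from the probe with the most counts unless both are given. Intervals cover the spread between mice in the fit.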

Additional observations from a re-analysis of the deposited data

Results flagged for a closer look

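In 21 of 80 combinations of gene and group (26.2%) the highest or the lowest mouse stood apart by Dixon's test. The test flags about 1 in 20 groups by chance if values are normal and independent. It was run on CPM without a log scale, for genes measured in the same mice. Many flags therefore repeat the same mouse, and 1 in 20 is no fair baseline for their number. Among the male controls mouse 2 was the one that stood apart: Saa1 at 56724 CPM, Saa2 at 41912 CPM, Orm1 at 1866 CPM, Orm2 at 3016 CPM, Hp at 3402 CPM, Lcn2 at 1119 CPM and Apcs at 535 CPM. Among the males at 0.1 mg/kg mouse 1 stood apart for Saa1 (15490 CPM), Saa2 (11469 CPM), Orm1 (433 CPM), Orm2 (114 CPM), Hpx (2645 CPM) and Lcn2 (52.4 CPM). At 0.5 mg/kg male 1 stood apart for Saa1 (1332 CPM) and Lcn2 (11.4 CPM). Female 2 at 5 mg/kg did so for Saa1 (2271 CPM), Lcn2 (165 CPM) and Saa4 (10.7 CPM). The others were Saa2 in 1 female at 0.5 mg/kg (211 CPM), Hpx in 1 female at 0.1 mg/kg (1818 CPM) and Apcs in 1 female at 0.1 mg/kg, the lowest of its group (101 CPM).

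The effect of 5 mg/kg differed between the sexes with all mice for Saa1 (male minus female log2 fold change -7.50), Saa2 (-7.62), Orm1 (-2.22) and Hp (-2.32). None of these 4 differences was called without male control 2 or without female 2 at 5 mg/kg.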

How the results depend on the processing

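Leaving out male control 2 turned 10 of the 24 probe differences called with all mice: Saa2 (1.37), Lcn2 (0.16) and Orm2 (0.83) in males at 0.5 mg/kg, Saa1 (0.20), Saa2 (1.57), Lcn2 (1.75) and Orm2 (1.37) at 5 mg/kg, and Saa1 (-0.44), Saa2 (-1.37) and Orm2 (-2.55) between the controls. Leaving out each mouse in turn, these ranged in the same order from -6.61 to 1.37, -7.42 to 0.16 and -5.69 to 0.83, from -6.23 to 0.20, -6.08 to 1.57, -4.97 to 1.75 and -5.21 to 1.37, and from -0.44 to 5.91, -1.37 to 6.29 and -2.55 to 3.94. Without male control 2 a further 9 were no longer called and 5 were. Without the 3 high mice together, chosen after seeing the data, the same 10 turned (1.37, 0.16, 0.83; 0.20, 1.57, 1.76, 1.37; -0.44, -1.37, -2.56), as did the difference between the sexes at 5 mg/kg for Saa1 (0.0090) and Saa2 (1.22). Over the fits without one other mouse, these differences stayed called 794 times and missed the threshold with the same sign 70 times. The alternatives in the choice of tool, filter and scaling turned none of those they gave a call for, which were 9 of the 24 by DESeq2, 17 with each sex fitted apart and all 24 under the others.

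The count of genes called moved as follows. In males at 0.1 mg/kg it was 0, and 4 with no filter. In males at 0.5 mg/kg it was 5, against 2 with a robust fit, 1 with each sex fitted apart, 1 by DESeq2, 3 at an adjusted p under 0.05, 0 without the 3 high mice, and 0 (without male control 2) to 6 leaving out 1 mouse, with 2 or 3 without any of males 2 to 5 at 0.5 mg/kg. In males at 5 mg/kg it was 8, against 3 by DESeq2, 5 without the 3 high mice, and 3 (without male control 2) to 9 leaving out 1 mouse. In females at 5 mg/kg it was 1, against 2 with no filter, 5 with each sex fitted apart, 3 without the 3 high mice, and 1 to 3 leaving out 1 mouse (3 without male control 2). For the difference between the sexes it was 0 at both lower doses, against 1 and 4 with no filter. At 5 mg/kg it was 4, against 1 with DESeq2 size factors, 7 with no filter, 0 with a robust fit, 1 with probes summed, 1 by DESeq2, 0 at an adjusted p under 0.05, 0 without the 3 high mice, and 0 to 4 leaving out 1 mouse (0 without male control 2, male 3 at 5 mg/kg or female 2 at 5 mg/kg, 1 without any of female controls 1 to 4, and 2 without any of 12 other mice). Between the controls it was 3, against 5 with no filter, 1 by DESeq2, and 2 to 4 leaving out 1 mouse. The correlated pairs numbered 22, against 5 without the 2 farthest mice and 5 without the 3 high mice. DESeq2 gave no adjusted p for 15 of the 24 differences, and its counts leave such probes uncalled. The cause of these moves was not tested.

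Each mouse belonged to a single dose group, so the doses were compared between different mice and no pairing was used. The labels give no replicate numbers. With 4 or 5 mice a group and a median SD between mice of 1.08 on the log2 scale, small differences could not be detected. The Lcn2 probe with 22 counts and the Saa1 probe with 0 were not tested. In male control 2 they had 5 and 0 counts, where the tested probes of the same genes had 8627 and 437258.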
